A study of Mus musculus with 12 samples.

Results

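Endothelial cells line the blood vessels of fat, and 10 genes that they are known for were followed across 4 diets in mouse visceral adipose tissue. The genes were Pecam1, Cdh5, Esam, Emcn, Tie1, Tek, Kdr, Flt1, Eng and Robo4. They were chosen by name. A probe set, a small group of array probes that mostly covers 1 exon, was used when the platform annotation gave it to exactly 1 of these genes. All 10 genes were found among the 20358 genes with such probe sets, through 197 probe sets between 7 (Esam) and 33 (Flt1) per gene, and none of these probe sets was shared with another gene. The log2 intensities of a gene's probe sets were reduced to their median on each array, called the gene value here, so a step of 1 stands for a 2-fold difference.

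Vessels in fat carry oxygen and lipid to the adipocytes, and they grow when a fat pad grows. Endothelial cells hold together through VE-cadherin, PECAM-1 and ESAM. They sense vascular growth factor through the VEGF receptors Kdr and Flt1, angiopoietin through Tek with its relative Tie1, and ligands of the BMP9 and BMP10 type with the help of endoglin (Eng). Bulk tissue was measured, so fewer endothelial cells and less RNA per endothelial cell cannot be told apart.

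The animals were male offspring of the inbred strain C57Bl/6J, sampled at 20 weeks of age. Every diet held trans fat (TFA), given as shortening at 20% w/w with 8.68% w/w trans fatty acids. TFA was the control diet. MSG+TFA added monosodium glutamate, a flavour enhancer, to the drinking water at 0.75 g/L, ASP+TFA added the sweetener aspartame at 0.25 g/L, and ASP+MSG+TFA added both at these doses. Dams were 6 weeks old when the diet began and were mated 3 weeks later. Offspring were weaned at 4 weeks and kept on the same diet. Each diet group had 15 mice and 3 arrays. Each array received RNA pooled from several mice. P-values therefore measure the spread between arrays of a diet, in which differences between pools and between arrays cannot be told apart. The study's methods describe the fat as the epididymal pads, other fat near the reproductive organs, and that of the omentum and mesentery.

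The tissue label was borne out by its markers, as the 8 adipocyte genes averaged between 12.59 and 12.93 on every array. Genes of neighbouring organs differed widely between arrays of 1 diet. The mean of 6 epididymis genes ran from 5.49 to 13.27, that of 5 seminal vesicle genes from 5.18 to 13.71, and that of 5 pancreas enzyme genes reached 11.39 on TFA replicate 2 against 5.17 to 6.18 elsewhere. Replicates 1 and 2 of TFA and of MSG+TFA also stood apart. The median olfactory or vomeronasal receptor gene, taken as a gauge of dim signal, lay at 6.40 to 6.76 on these 4 arrays and at 5.44 to 5.67 on the other 8. They are called the raised arrays below. Neither aspartame diet held a raised array, so replicate 3 of TFA and of MSG+TFA are the arrays of the diets without aspartame that resemble the other diets in dim signal. Differences of the aspartame diets from these 2 arrays are therefore given too. TFA replicate 3 also carried seminal vesicle signal, with a mean of 12.93 against 5.76 on MSG+TFA replicate 3.

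Promoters are shown for the genes with the largest and the smallest difference between ASP+MSG+TFA and TFA (Tie1 and Robo4 on one side, Kdr on the other), because factors of the ETS family are known to drive many endothelial genes. RefSeq promoter windows of build GRCm38.p6 were at hand for 7 of the 10 genes: Emcn, Tie1, Tek, Kdr, Flt1, Eng and Robo4. Each window below holds the 250 bases before the annotated start, written 5′ to 3′ along the gene's own strand, and capitals mark AGGAAG or CCGGAA, which are ETS-type motifs, on either strand.
Tie1: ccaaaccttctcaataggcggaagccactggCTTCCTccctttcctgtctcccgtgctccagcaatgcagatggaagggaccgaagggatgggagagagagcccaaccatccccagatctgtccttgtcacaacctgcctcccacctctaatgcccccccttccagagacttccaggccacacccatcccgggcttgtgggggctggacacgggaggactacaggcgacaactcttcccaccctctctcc
Robo4: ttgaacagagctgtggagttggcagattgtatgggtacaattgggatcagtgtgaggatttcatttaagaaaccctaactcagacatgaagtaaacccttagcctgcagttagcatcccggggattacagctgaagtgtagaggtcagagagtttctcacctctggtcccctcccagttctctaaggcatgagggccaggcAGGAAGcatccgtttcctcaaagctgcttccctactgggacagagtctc
Kdr: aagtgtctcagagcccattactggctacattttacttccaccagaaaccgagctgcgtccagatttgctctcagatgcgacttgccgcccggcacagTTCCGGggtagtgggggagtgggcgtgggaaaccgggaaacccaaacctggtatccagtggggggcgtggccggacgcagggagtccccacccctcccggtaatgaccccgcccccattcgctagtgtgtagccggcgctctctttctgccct
The Tie1 window lies at chr4:118489850-118490099 on the minus strand, that of Robo4 at chr9:37401722-37401971 on the plus strand, and that of Kdr at chr5:75978456-75978705 on the minus strand. AGGAAG was present in 5 of the 7 windows (Emcn, Tie1, Flt1, Eng and Robo4) and in 29.5% of all 32851 promoters of the table, read over the same length. CCGGAA was present in 1 window, that of Kdr, and in 12.0% of all promoters. One of the motifs occurred in 6 of the 7 windows and in 38.2% of all promoters, and the window of Tek held neither. Both motifs contain GGAA, and no window held both of them. A match describes letters, not a bound site.

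The question for each additive diet was whether the endothelial genes differed from their level under TFA alone. Every one of the 10 genes had its lowest diet mean under TFA, and 9 had their highest under ASP+MSG+TFA, the exception being Kdr. For 8 genes the means were ordered from TFA through MSG+TFA and ASP+TFA to the diet with both additives. No neighbours in that order differed by more than the largest SD of the gene, in any of the 10 genes. None of the 10 genes passed the limma test (adjusted p under 0.05, and a 1.4-fold difference or more) against TFA or for either additive over both backgrounds, and none passed for the interaction.

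**Figure D1:**
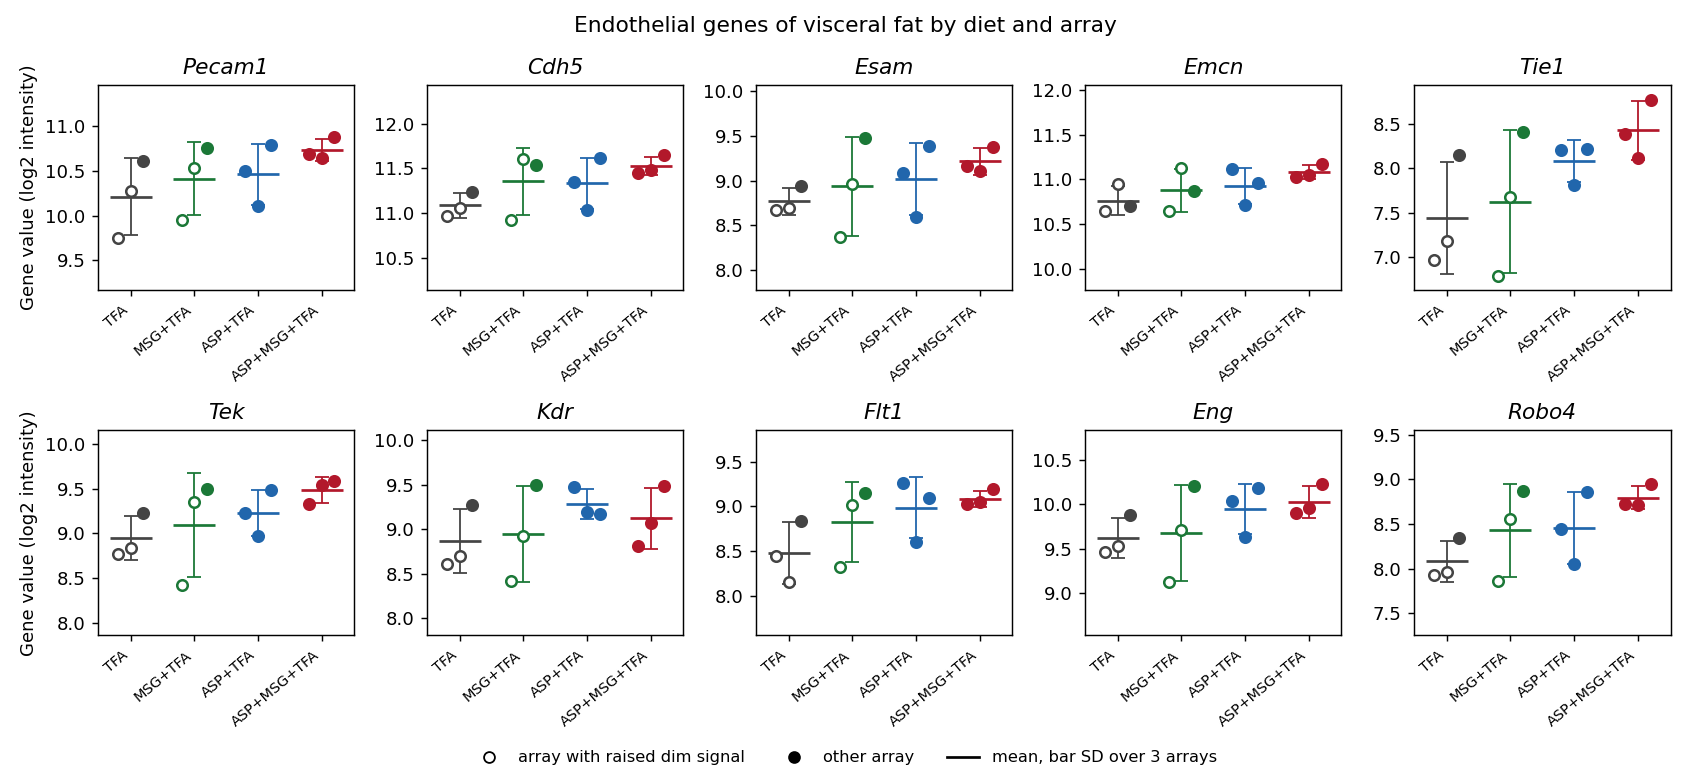
Gene value (log2 intensity) of the 10 endothelial genes on each of the 12 arrays by diet, each panel spanning the same height, with the mean as a line and the SD over 3 arrays as a bar. Open circles are the 4 raised arrays, and in most panels they lie low within TFA and MSG+TFA while the ASP+MSG+TFA arrays lie close together at the top.

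Junction and surface proteins come first. Pecam1 encodes PECAM-1, an adhesion molecule at the contacts between endothelial cells. Its values were 9.75, 10.27 and 10.61 under TFA, 9.95, 10.54 and 10.75 under MSG+TFA, 10.50, 10.10 and 10.79 under ASP+TFA, and 10.68, 10.65 and 10.88 under ASP+MSG+TFA (replicates 1 to 3 in each diet). The ASP+MSG+TFA arrays all lay above the TFA arrays, with TFA replicate 3 only 0.13 below their mean, and the other diets overlapped with TFA. The difference of ASP+MSG+TFA from TFA was 0.53 ± 0.26 (SE, 3 arrays per diet, limma adjusted p = 0.206).

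Cdh5 encodes VE-cadherin, the adhesion protein of endothelial junctions. It measured 10.97, 11.06 and 11.24 under TFA, 10.92, 11.60 and 11.54 under MSG+TFA, 11.35, 11.04 and 11.61 under ASP+TFA, and 11.45, 11.48 and 11.65 under ASP+MSG+TFA. All 3 arrays with both additives again lay above all 3 TFA arrays, while MSG+TFA replicate 1 was the lowest of the 12. The mean difference was 0.44 ± 0.20 (limma adjusted p = 0.178), and from TFA replicate 3 alone it was 0.29.

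Esam, a junction adhesion molecule of the immunoglobulin family, had the fewest probe sets. Its values were 8.67, 8.69 and 8.94 under TFA, 8.37, 8.97 and 9.47 under MSG+TFA, 9.09, 8.59 and 9.38 under ASP+TFA, and 9.16, 9.10 and 9.38 under ASP+MSG+TFA. Both the lowest and the highest array belonged to MSG+TFA, so that diet spanned the whole range. ASP+MSG+TFA differed from TFA by 0.45 ± 0.27 (limma adjusted p = 0.278) and from TFA replicate 3 alone by 0.28.

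Emcn encodes endomucin, a sialomucin of capillary and venous endothelium. Its values were the steadiest of the 10 genes, with 10.64, 10.95 and 10.70 under TFA, 10.65, 11.13 and 10.87 under MSG+TFA, 11.11, 10.71 and 10.96 under ASP+TFA, and 11.03, 11.05 and 11.18 under ASP+MSG+TFA. It was the only gene whose replicate 3 did not exceed the mean of the raised arrays of its diet, the difference being -0.093 under TFA and -0.020 under MSG+TFA. The difference of ASP+MSG+TFA from TFA was 0.32 ± 0.16 (limma adjusted p = 0.204), and from TFA replicate 3 alone it was 0.38.

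The receptors of the angiopoietin system followed. Tie1, an orphan receptor that modulates Tek signalling, had the widest range of the 10 genes, 1.97 over the 12 arrays. It measured 6.97, 7.19 and 8.15 under TFA, 6.80, 7.67 and 8.40 under MSG+TFA, 8.21, 7.81 and 8.22 under ASP+TFA, and 8.39, 8.11 and 8.77 under ASP+MSG+TFA. Its 4 lowest values were those of the raised arrays, and TFA replicate 3 lay among the arrays of the aspartame diets. The difference from TFA was 0.99 ± 0.40 for ASP+MSG+TFA (limma adjusted p = 0.146) and 0.64 ± 0.40 for ASP+TFA (adjusted p = 0.330), but only 0.27 and -0.073 from TFA replicate 3.

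Tek (Tie2) is the receptor that angiopoietins bind. Its values were 8.77, 8.84 and 9.23 under TFA, 8.42, 9.35 and 9.50 under MSG+TFA, 9.23, 8.98 and 9.48 under ASP+TFA, and 9.33, 9.54 and 9.59 under ASP+MSG+TFA. The arrays with both additives lay above all TFA arrays, by 0.26 in the mean over TFA replicate 3 and by 0.54 ± 0.26 over the diet (limma adjusted p = 0.195).

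Among the VEGF receptors, Kdr (VEGFR2) carries most of the growth signal of VEGF-A in endothelium. It measured 8.61, 8.70 and 9.27 under TFA, 8.42, 8.93 and 9.50 under MSG+TFA, 9.48, 9.19 and 9.18 under ASP+TFA, and 8.81, 9.07 and 9.48 under ASP+MSG+TFA. Kdr had the smallest difference between ASP+MSG+TFA and TFA, 0.26 ± 0.28 (limma adjusted p = 0.550), and its mean under ASP+MSG+TFA lay 0.15 below TFA replicate 3. Its mean was highest under ASP+TFA, 0.42 ± 0.28 above TFA (adjusted p = 0.363).

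Flt1 (VEGFR1) binds VEGF-A tightly and is known as a brake on its supply to Kdr. Its values were 8.44, 8.15 and 8.84 under TFA, 8.32, 9.01 and 9.15 under MSG+TFA, 9.26, 8.60 and 9.10 under ASP+TFA, and 9.02, 9.05 and 9.19 under ASP+MSG+TFA. Here the 3 arrays with both additives spanned 9.02 to 9.19 and none overlapped with TFA. The differences from TFA were 0.61 ± 0.25 for ASP+MSG+TFA (limma adjusted p = 0.153), 0.51 ± 0.25 for ASP+TFA (adjusted p = 0.248) and 0.35 ± 0.25 for MSG+TFA (adjusted p = 1.00). From TFA replicate 3 alone they were 0.25 for ASP+MSG+TFA and 0.15 for ASP+TFA.

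Eng encodes endoglin, a co-receptor for BMP9 and BMP10. It measured 9.46, 9.53 and 9.87 under TFA, 9.13, 9.71 and 10.20 under MSG+TFA, 10.04, 9.64 and 10.18 under ASP+TFA, and 9.90, 9.96 and 10.23 under ASP+MSG+TFA. The 3 arrays with both additives lay above TFA, the lowest of them by less than 0.05 over TFA replicate 3. The difference was 0.41 ± 0.25 (limma adjusted p = 0.296), and from TFA replicate 3 alone it was 0.15.

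Robo4, a receptor of the roundabout family that stabilises vessels, closed the set. Its values were 7.93, 7.96 and 8.35 under TFA, 7.86, 8.55 and 8.87 under MSG+TFA, 8.45, 8.05 and 8.86 under ASP+TFA, and 8.72, 8.72 and 8.95 under ASP+MSG+TFA. It had the second largest difference of ASP+MSG+TFA from TFA, 0.71 ± 0.27 (limma adjusted p = 0.135), and the largest from TFA replicate 3, 0.45.

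**Figure D2:**
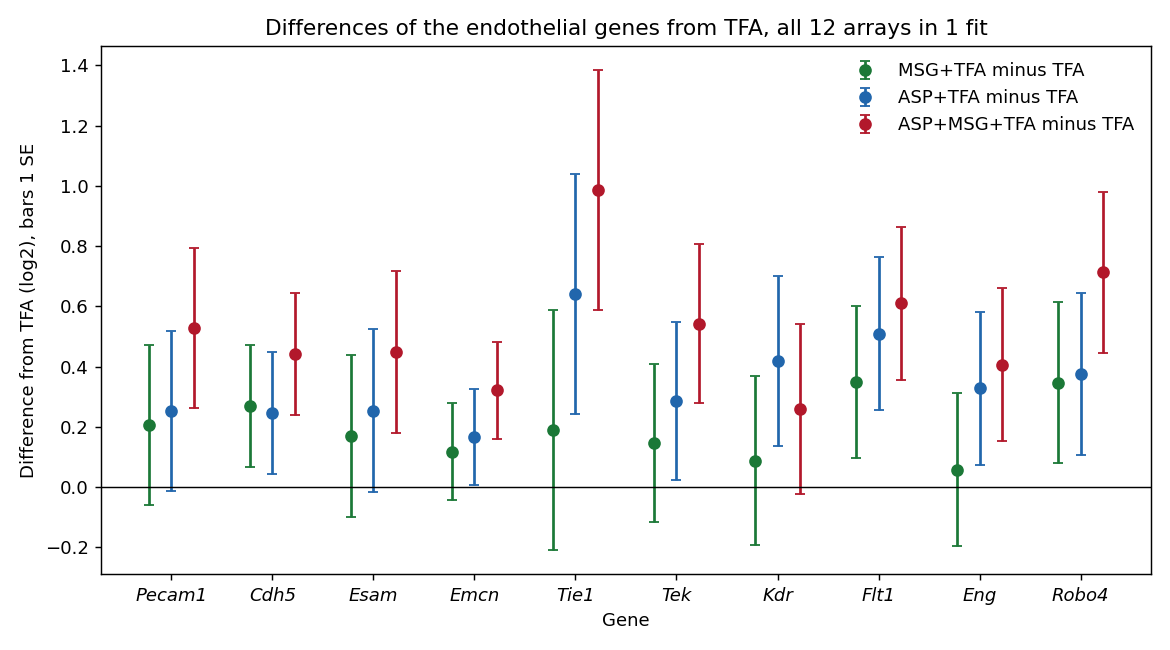
Difference of each diet from TFA (log2, vertical axis) for the 10 genes, with 1 SE of the fit over all 12 arrays as bars. All 30 points lie above 0, the largest being Tie1 under ASP+MSG+TFA at 0.99, and no difference passed the adjusted test.

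Across the set, the median difference from TFA was 0.18 for MSG+TFA (range 0.06 to 0.35), 0.31 for ASP+TFA (0.17 to 0.64) and 0.49 for ASP+MSG+TFA (0.26 to 0.99). All 10 genes lay above TFA in each diet, where 46.6%, 46% and 46% of all genes did. The 3 comparisons share the TFA arrays. Genes of the same brightness, 6565 with a mean between those of Tie1 and Cdh5, had medians of 0.047, 0.16 and 0.16 in the same comparisons, and 4851 of them lay above TFA in the last. Over all genes the medians were -0.015, -0.042 and -0.047. With an adjusted p under 0.05 and 1.4-fold, 0% of all genes were called in each of these 3 comparisons, so the 0 of 10 endothelial genes had a background of 0.

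At an unadjusted p under 0.05, 3 of the 10 genes (Tie1, Flt1 and Robo4) lay higher under ASP+MSG+TFA. So did 9.15% of all genes and 993 of the 6565 genes of the same brightness. None of the 10 did under ASP+TFA or MSG+TFA, where the background was 6.94% and 1.09% of all genes. Of the 6565 genes of the same brightness, 746 and 114 did. The shares for arrays without overlap, next, were taken over all genes only. Under ASP+MSG+TFA 8 of the 10 genes had all 3 arrays above all 3 TFA arrays, all but Tie1 and Kdr, against 13.7% of all genes, and under each single additive all 10 overlapped with TFA (2.06% of all genes lay wholly above TFA under MSG+TFA and 7.17% under ASP+TFA). Leaving out TFA replicate 3 raised the number of endothelial genes called under ASP+MSG+TFA from 0 to 2 (Tie1 at 1.34 and Flt1 at 0.79), while 6042 genes of the array were then called in all.

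Aspartame was also compared over both backgrounds, as the mean of its 2 diets minus the mean of the 2 diets without it. All 10 genes lay above 0, and their median was 0.32. Of all genes 47.5% lay above 0, and of the 6565 genes of the same brightness 5079 did, with a median of 0.14. Among the 10 endothelial genes, Tie1 was highest at 0.72 ± 0.28 (limma adjusted p = 0.0968). Flt1 followed at 0.39 ± 0.18 (adjusted p = 0.146) and Emcn was lowest at 0.18 ± 0.11 (adjusted p = 0.254). None of the 10 was called, where 7.63% of all genes were. One (Tie1) had an unadjusted p under 0.05 in the higher direction. So did 11.6% of all genes and 1208 of the 6565 genes of the same brightness. The call of Tie1 turned on single arrays of the diets without aspartame: it passed without TFA replicate 3 (0.90, adjusted p = 0.0232) or without MSG+TFA replicate 3 (0.91, adjusted p = 0.0243), and with the replicate number as a block (adjusted p = 0.0393).

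Glutamate over both backgrounds gave smaller differences, with a median of 0.21 and 9 of 10 genes above 0. Of all genes 44.7% lay above 0, and of the 6565 genes of the same brightness 3856 did. Among the 10 endothelial genes, Robo4 was the highest at 0.34 ± 0.19 and Kdr the lowest at -0.036 ± 0.20 (adjusted p = 1.00 for both). No gene of the 10 had an unadjusted p under 0.05, where 1.66% of all genes did on the higher side, and 0% of all genes were called. The interaction of the additives lay between -0.25 (Flt1 and Kdr) and 0.16 (Tie1) with SEs of 0.23 to 0.56, and none passed, nor did any gene of the array (0%). At an unadjusted p under 0.05 the interaction took 0 of the 10 genes and 1.22% of all genes. An F test over the 4 diets together gave adjusted p-values between 0.359 (Tie1) and 0.700 (Kdr). At an unadjusted p under 0.05 it took 0 of the 10 genes, where it took 18.1% of all genes, and after adjustment 0%.

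The raised arrays were then set against the others. Within TFA and MSG+TFA, replicate 3 exceeded the mean of the raised arrays in 9 of the 10 genes. The median difference was 0.53, with Tie1 at 1.12, Kdr at 0.72 and Emcn at -0.056, whereas genes of the same brightness had a median of 0.24. Both replicate 3 arrays lay above all 4 raised arrays for Pecam1, Tie1, Kdr and Eng, that is 4 of 10 genes against 23.2% of all genes. For Tie1 alone, all 6 arrays of the aspartame diets also lay above all 4 raised arrays, against 12.5% of all genes.

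Compared with these replicate 3 arrays, the 6 arrays of the aspartame diets had no common direction. Only 4 of the 10 genes had a higher mean there (Cdh5, Emcn, Flt1 and Robo4), the median difference was -0.015 (-0.016 for genes of the same brightness), and the genes ran from -0.18 (Kdr) to 0.22 (Emcn). None of the 10 genes had all 6 aspartame arrays above both, against 2.63% of all genes. A term for the raised arrays in the fit brought the median difference of ASP+TFA from TFA from 0.31 to -0.059 and that of ASP+MSG+TFA from 0.49 to 0.22. With the raised arrays left out instead, ASP+TFA differed from TFA by -0.15 (Pecam1) to 0.23 (Emcn). Only Pecam1 and Tie1 lay below TFA there, so the direction for ASP+TFA depended on which of these fits was used. Aspartame and the raised arrays are thus only partly separable, since a single array of each diet without aspartame carries that comparison.

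**Figure D3:**
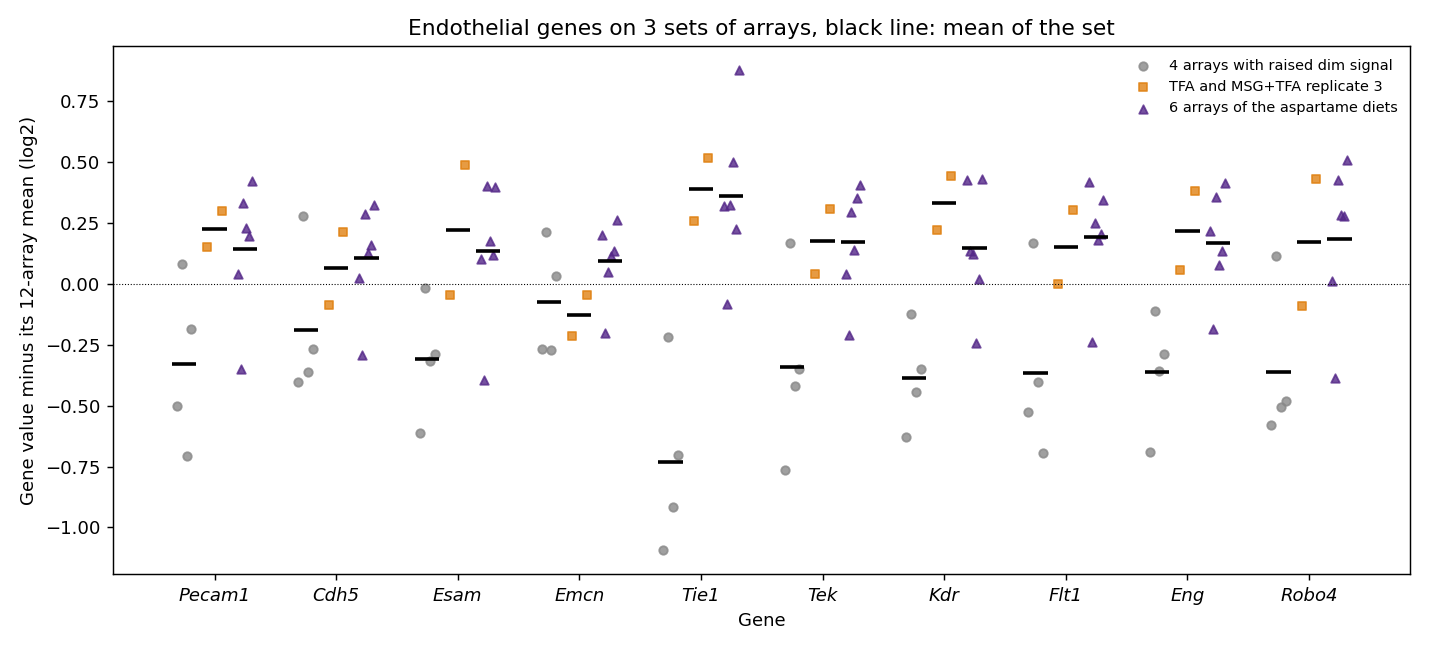
Gene value minus the gene's own 12-array mean (log2) on the 4 raised arrays (circles), replicate 3 of TFA and MSG+TFA (squares) and the 6 arrays of the aspartame diets (triangles), with each set's mean as a black line. The squares and triangles overlap in all 10 genes, and the circles have the lowest mean in every gene but Emcn.

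What remained for ASP+MSG+TFA was smaller in every gene but Emcn, which differed by 0.38 from TFA replicate 3 and by 0.32 from the diet. Over TFA replicate 3 alone, the mean difference lay between -0.15 (Kdr) and 0.45 (Robo4). All 3 arrays with both additives lay higher than this array in 8 of the 10 genes (24.8% of all genes). They are the 8 genes already above all 3 TFA arrays, so this count follows from that one and is no separate evidence. For ASP+TFA the count was 1, Emcn, against 17.8% of all genes. Against MSG+TFA replicate 3 the mean difference lay between -0.38 (Kdr) and 0.22 (Emcn), with Emcn and Tie1 (0.018) above 0, and only Emcn had all 3 ASP+MSG+TFA arrays higher (19.5% of all genes did), and no gene had all 3 ASP+TFA arrays higher (16.8%). With the 4 raised arrays left out of the fit, no gene passed: the difference of ASP+MSG+TFA from TFA was 0.45 ± 0.30 for Robo4 (limma adjusted p = 0.770) and 0.38 ± 0.19 for Emcn (adjusted p = 0.697), and here TFA is 1 array, assumed to vary like the other diets.

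MSG+TFA and TFA have raised arrays with the same numbers, so they can be set side by side. A pair here means 2 arrays of the same number, as the titles do not say that the pools were paired. Replicate 1 of MSG+TFA lay above that of TFA in 2 of 10 genes (Pecam1 and Emcn, median difference -0.15), replicate 2 in 10 of 10 (0.38) and replicate 3 in 10 of 10 (0.28). All 3 pairs ran higher in MSG+TFA for 2 genes, against 12.9% of all genes. Pairs 2 and 3 alone did for all 10 genes, against 29.2%. That count leaves out the pair that went the other way, so it is no separate evidence. Genes of the same brightness had medians of 0.030, 0.088 and -0.0018 in the 3 pairs. Within the pairs the largest difference was Flt1 at 0.35 ± 0.21 and no gene passed (limma adjusted p from 0.781 to 0.950).

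Most of the endothelial genes moved together between arrays of 1 diet. Among the exceptions, Emcn was highest on replicate 2 under TFA and MSG+TFA, and Kdr was lowest on replicate 3 under ASP+TFA. The mean of the 10 genes was 9.02, 9.13 and 9.52 under TFA, 8.88, 9.55 and 9.82 under MSG+TFA, 9.67, 9.27 and 9.78 under ASP+TFA, and 9.65, 9.67 and 9.93 under ASP+MSG+TFA. MSG+TFA replicate 1 was the lowest array for 7 genes and ASP+MSG+TFA replicate 3 the highest for 7. The SD over 3 arrays was 0.48 under MSG+TFA and 0.16 under ASP+MSG+TFA, and 9 genes had their largest SD under MSG+TFA.

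Epididymal signal was set beside these levels. In 3 of the 4 diets the array with the most signal from the 6 epididymis genes had the lowest endothelial mean: TFA replicate 1 (12.69 and 9.02), MSG+TFA replicate 1 (13.27 and 8.88) and ASP+TFA replicate 2 (13.13 and 9.27). Under ASP+MSG+TFA, replicates 1 and 2 were nearly tied on both (12.58 and 12.79 for the epididymis genes, 9.65 and 9.67 for the endothelial genes), and replicate 3, with 5.49, had the highest endothelial mean. ASP+TFA replicate 3 likewise had the least epididymis signal of its diet (6.21) and the highest endothelial mean (9.78). The other 2 diets went the other way at that end: the array with the least epididymis signal was replicate 2 under TFA (5.83 and 9.13) and under MSG+TFA (5.68 and 9.55), and its endothelial mean lay below that of replicate 3 (10.12 and 9.52 under TFA, 9.51 and 9.82 under MSG+TFA). The seminal vesicle genes averaged 13.71 on ASP+TFA replicate 2, 13.52 on ASP+MSG+TFA replicate 1 and 12.93 on TFA replicate 3. The first 2 of these arrays had the lowest endothelial mean of their diet, and TFA replicate 3 had the highest of its diet. The part of these tissues in the endothelial differences was not tested.

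**Figure D4:**
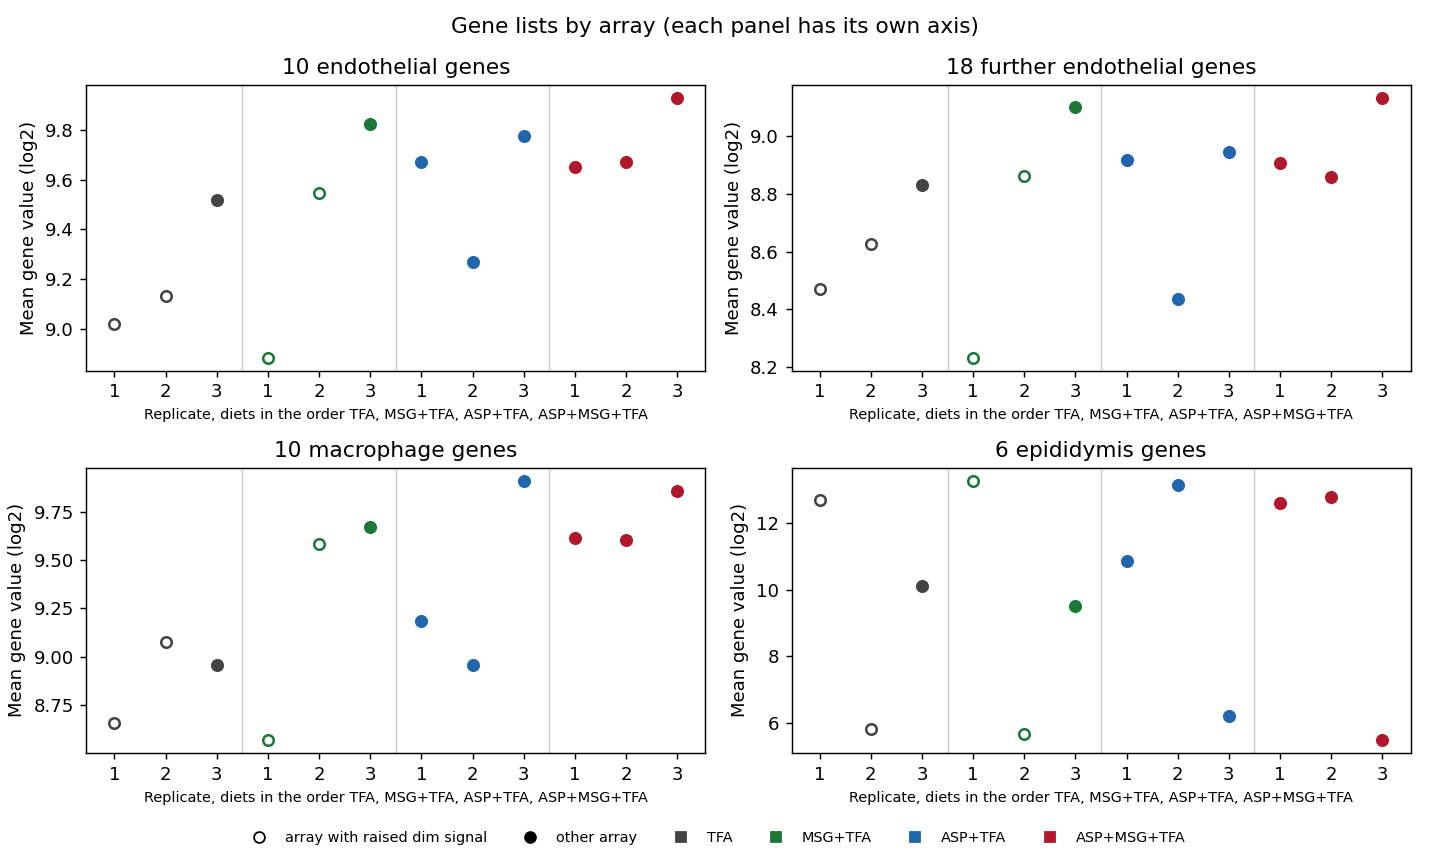
Mean gene value (log2) of 4 gene lists on each array, with diets separated by vertical lines, replicate numbers on the horizontal axis and open circles for the raised arrays. The 18 further endothelial genes and the 10 macrophage genes have their lowest array in common with the 10 endothelial genes, MSG+TFA replicate 1, which has the highest epididymis signal at 13.27.

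Other genes of the same vessels were read from lists chosen by function. All 18 further endothelial genes lay above TFA under ASP+MSG+TFA, with a median of 0.33, and 14 did under ASP+TFA and 16 under MSG+TFA. One reached an unadjusted p under 0.05 under ASP+MSG+TFA, Cd34, a sialomucin not confined to endothelium, at 0.32 ± 0.12 (limma adjusted p = 0.140). Cd93, a lectin-like endothelial receptor, stood at 0.63 ± 0.30 (adjusted p = 0.189) and Aplnr, the apelin receptor, at 0.51 ± 0.25 (adjusted p = 0.196). Ecscr, a regulator of endothelial migration, stood at 0.35 ± 0.16 (adjusted p = 0.177). None of the 18 was called in any comparison.

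Of 12 ligands for these receptors, 7 lay above TFA and 5 below it under ASP+MSG+TFA, with a median of 0.073. Angpt2, the angiopoietin that endothelial cells release themselves, stood at 0.58 ± 0.23 (limma adjusted p = 0.144), though its mean level of 6.42 was within dim signal, below 6.61, the 90th percentile of the receptor genes. Vegfc, a ligand of lymphatic growth, stood at -0.91 ± 0.24 under ASP+TFA (adjusted p = 0.186) and -0.48 ± 0.24 under ASP+MSG+TFA (adjusted p = 0.199). Bmp10 and Angpt4 also lay below TFA in both aspartame diets, Bmp10 with -0.57 ± 0.17 and -0.75 ± 0.17 and Angpt4 with -0.66 ± 0.30 and -0.77 ± 0.30, at mean levels of 5.40 and 6.28 that are dim signal. For aspartame over both backgrounds, 2 of the 12 ligands were called, where 7.63% of all genes were. Both fell, Vegfc at -0.66 ± 0.17 and Bmp10 at -0.60 ± 0.12 (limma adjusted p = 0.0483 for both). No gene of the array was called in this comparison once a term for the raised arrays entered the fit.

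Partner receptors and junction proteins ran mostly upward without a call against TFA. Under ASP+MSG+TFA 10 of 11 partner receptors lay above TFA with a median of 0.48. Among them were Plxnd1, a semaphorin receptor of endothelium, at 0.93 ± 0.38 (limma adjusted p = 0.148), and Tgfbr2, the type II receptor for TGF-beta, at 0.62 ± 0.21 (adjusted p = 0.126). Flt4 (VEGFR3), the main receptor for Vegfc, stood at 0.60 ± 0.23 (adjusted p = 0.137) from a dim mean of 5.89. Of 10 junction partners of VE-cadherin 9 lay above TFA, with Jup (plakoglobin) at 0.61 ± 0.18 (adjusted p = 0.123) and Ctnnb1 (beta-catenin) at 0.31 ± 0.11 (adjusted p = 0.128). Jup and Ctnnb1 are made by many other cell types.

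Transcription factors of endothelial cells lay above TFA in 15 of 16 cases under ASP+MSG+TFA, with a median of 0.28. Ets2, of the ETS family, stood at 0.85 ± 0.21 (limma adjusted p = 0.123), Sox18 at 0.62 ± 0.27 (adjusted p = 0.164) and Sox17 at 0.76 ± 0.33 (adjusted p = 0.164). Sox17 and Sox18 are SOX factors of vessel formation. Under MSG+TFA the 4 factors of smallest unadjusted p were Elk3 at 0.38 ± 0.18, Ets2 at 0.36 ± 0.21 and Ets1 at 0.33 ± 0.26, all of the ETS family, and Klf2, a factor that responds to blood flow, at -0.27 ± 0.22 (adjusted p = 1.00 for each). None of the 16 was called.

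Vessel subtypes gave no common direction. Of 6 arterial genes 5 lay above TFA under ASP+MSG+TFA (median 0.19), of 4 venous genes 2 (0.0058), of 4 activation genes 2 (-0.24) and of 4 lymphatic genes all 4 (0.27). None of these 18 genes was called against TFA. For aspartame over both backgrounds 2 of the 4 activation genes were called lower, Icam1 and Sele, which encode adhesion molecules that catch leukocytes, at -0.57 ± 0.15 and, from a dim level, -0.88 ± 0.23. Pdpn (podoplanin) of the lymphatic list, which mesothelial cells and fibroblasts also make, and the junction gene Jam3, at a dim level, were called higher, at 0.49 ± 0.11 and 0.65 ± 0.16 (limma adjusted p = 0.0483 for each of these 4 genes). They were named for their calls, where 7.63% of all genes were called, and these calls too were absent with a term for the raised arrays. Vcam1 of the activation list, also a leukocyte adhesion molecule, was not called and lay higher with aspartame. Its diet means were 8.86 (ASP+TFA) and 8.95 (ASP+MSG+TFA), against 8.63 (TFA) and 8.71 (MSG+TFA).

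Genes of cells that surround or accompany vessels had differences that varied in size and direction between cell types. Pericyte and smooth muscle genes lay above TFA in 10 of 10 cases under ASP+MSG+TFA, with a median of 0.52. Acta2, smooth muscle actin, stood at 0.69 ± 0.16 (limma adjusted p = 0.122), Pdgfrb, the PDGF receptor of pericytes, at 0.81 ± 0.28 (adjusted p = 0.127) and Notch3 at 0.91 ± 0.33 (adjusted p = 0.133). Acta2 was also above TFA under the single additives, by 0.41 ± 0.16 with MSG+TFA (adjusted p = 1.00) and 0.37 ± 0.16 with ASP+TFA (adjusted p = 0.213). Kcnj8, a potassium channel subunit of pericytes, stood at 1.45 ± 0.41 under ASP+TFA (adjusted p = 0.186) from a dim mean of 5.96. Fibroblast genes did so in 7 of 8 cases (median 0.44) and macrophage genes in 9 of 10 (median 0.77). The macrophage mean ran from 8.65 to 9.08 under TFA and from 9.61 to 9.86 under ASP+MSG+TFA, without overlap. Adipocyte genes split 4 and 4 (median 0.010). The 5 platelet genes, which include Pf4 and Ppbp, split 2 above and 3 below (median -0.028). T cell genes split 2 above and 3 below, and 3 of 4 B cell genes lay above TFA. The part of these cell types in the endothelial differences was not tested.

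Nearest profiles were sought among 11519 other genes above dim signal, as the smallest root mean square distance over 12 arrays between a gene's centred log2 values and the mean centred profile of the 10 endothelial genes. They were Ehd4 (0.054), Gimap6 (0.057), Mob3a (0.070), Id3, Itsn1, Lamc1, Hrct1 and Rap2c (0.077 to 0.082), against a median of 0.32 over those genes. The 10 endothelial genes lay between 0.077 (Eng) and 0.30 (Tie1) from a profile that includes them. Ranked by this distance among genes above dim signal, Kdr stood at 1205, Emcn at 2093 and Tie1 at 5048. The other endothelial genes ranked from 6 (Eng) to 146 (Flt1). Of 53 listed vascular genes above dim signal, 4 were among the 100 nearest of the 11519 genes.

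Single probe sets showed how the median arises. Under ASP+MSG+TFA 182 of the 197 probe sets lay above TFA, among them all 12 of Cdh5, all 23 of Tek, all 16 of Eng and all 7 of Esam. The spread within a gene was widest for Kdr (-0.26 to 2.45), Flt1 (-0.91 to 1.67) and Tie1 (-0.88 to 1.68). By mean log2 level, the median difference was 0.51 for the 25 probe sets below 7, 0.75 for the 59 from 7 to 9, 0.49 for the 91 from 9 to 11 and 0.32 for the 22 above 11. All probe sets with 1 gene gave medians of -0.082, 0.19, 0.13 and 0.038 in these ranges. From 7 upward the brighter ranges had the smaller medians, and the dimmest range did not follow that order. The ranges also differed in their genes, as no probe set of Tie1, Tek, Flt1 or Robo4 lay above 11.

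**Figure D5:**
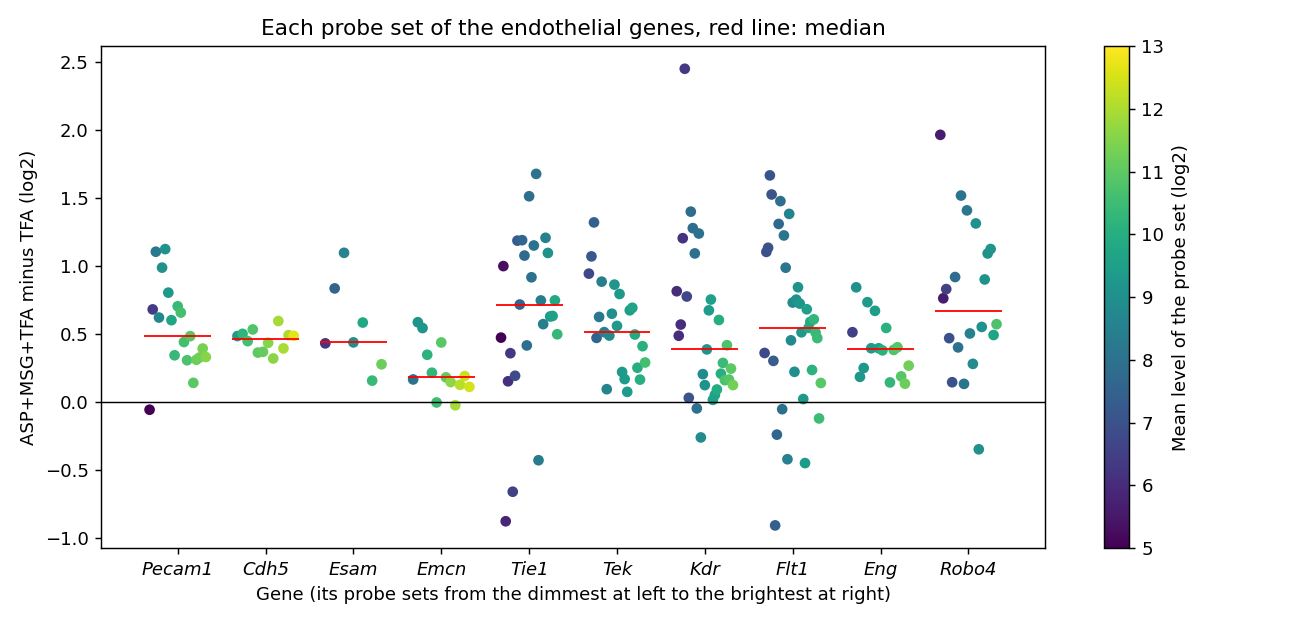
Difference of ASP+MSG+TFA from TFA (log2, vertical axis) for each of the 197 probe sets, ordered within a gene from dim to bright and coloured by mean level, with the gene's median in red. The brightest probe set lies at 0.11 for Emcn and at 0.49 for Cdh5, and the widest scatter belongs to dimmer probe sets.

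The brightest probe set of each gene, the least touched by dim signal, stood above TFA under ASP+MSG+TFA in all 10 genes, from 0.11 (Emcn) to 0.57 (Robo4). That of Tie1, at a mean level of 10.33, differed by 0.50 where the gene value differed by 0.99. Under ASP+TFA the brightest probe sets of Pecam1, Emcn and Kdr lay below TFA, at -0.051, -0.072 and -0.095. In replicate 3 of TFA and MSG+TFA against the raised arrays, the endothelial probe sets above 11 still differed by a median of 0.28. None of these came from Tie1, Tek, Flt1 or Robo4. All probe sets of that brightness had a median of 0.092.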

How the data were processed

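Gene expression was measured on 12 Affymetrix Mouse Gene 1.0 ST arrays. The deposited values are linear intensity. Per the labels and the study's methods, the authors made them in Partek with GCRMA (background correction from probe sequence) and quantile normalization. Versions used here were R 4.3.3 and limma 3.58.1. Of 241576 probe sets, 212138 named exactly 1 gene, 4672 several and 24766 none in the annotation, and the latter 2 kinds were left out. Symbols were updated through RefSeq (17626 current, 2743 replaced, 53 kept), which gave 20358 genes. Median intensities per array were 144.9 to 150.6, and the number of arrays limits the precision.

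Groups came from the sample titles. Intensities were turned to log2, a gene's value was the median of its probe sets, and limma fitted 1 mean per diet to all 12 arrays (8 residual degrees of freedom) with moderated two-sided tests. P-values were adjusted by Benjamini-Hochberg over all 20358 genes, and the call rule was an adjusted p under 0.05 with a 1.4-fold difference or more (for F tests and the interaction, the adjusted p alone). On simulated data for ASP+TFA against TFA with all 20358 genes, 13.4% of genes changed 1.5-fold, 50.7% of those changed 2-fold and 89.4% of those changed 4-fold were recovered. The simulation changed 67 genes by 1.5-fold, 67 by 2-fold and 66 by 4-fold. Its noise was drawn independently for each gene, without a shift shared by arrays such as that of the raised arrays. Recovery in the real data can therefore differ. Deviations from the diet means of arrays with the same replicate number correlated at 0.59 to 0.66 between TFA and MSG+TFA. No other 2 diets had all 3 pairs over 0.1. In TFA and MSG+TFA, replicates 1 and 2 are raised arrays and replicate 3 is not. That alone can give such correlations, so they do not show that the pools were paired. Alternatives were other summaries of probe sets, normalization, filters, array weights, moderation and unmoderated analysis, a term for or removal of the raised arrays, the replicate block, only the diets compared and each array left out.

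All 10 endothelial genes were named in every comparison. From the lists of ligands, partner receptors, junction partners, transcription factors, further endothelial markers and mural genes, those named were among the 4 per comparison with TFA of smallest unadjusted p, and the 8 genes of nearest profile were added. The genes, lists and tests were chosen with earlier results of these data known. No background correction was repeated here, and probe sets cannot separate transcripts of 1 gene.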

Additional observations from a re-analysis of the deposited data

How the results depend on the processing

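Of 75 counts of endothelial genes called under settings other than leaving out single arrays, 5 moved from 0. Array weights called 4 genes under ASP+TFA, 6 under ASP+MSG+TFA, 2 for aspartame over both backgrounds and 5 in the F test, which then called 10892 of all 20358 genes. They gave TFA replicate 3 a weight of 0.17, MSG+TFA replicate 3 one of 0.25 and ASP+TFA replicate 1 one of 5.98. The replicate block called 1 gene for aspartame (Tie1) and changed no other call of an endothelial gene. With each array left out, the count was 0 to 2 for ASP+MSG+TFA (2 without TFA replicate 3) and 0 to 1 for aspartame (1 without TFA or MSG+TFA replicate 3). The cause was not tested. Over all genes, the 1554 calls for aspartame became 2452 with means of probe sets, 3301 with the brightest probe set, 3102 with the replicate block, 6633 with array weights, 5414 when TFA replicate 3 was dropped, 4773 when MSG+TFA replicate 3 was, and 0 under each other setting or with any other array dropped. ASP+MSG+TFA against TFA went from 0 to 7671 with array weights and 6042 without TFA replicate 3, and ASP+TFA from 0 to 7615 and 5413, with at most 2 under the other settings. The unmoderated contrast that the methods name called 0 endothelial genes.

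With a term for the raised arrays the median difference was -0.059 for ASP+TFA and -0.015 for aspartame, the latter also with the raised arrays left out. That term turned ASP+TFA below TFA for Pecam1 (-0.12), Esam (-0.10), Tie1 (-0.11), Tek (-0.059), Kdr (-0.060) and Eng (-0.059), and ASP+MSG+TFA for Kdr (-0.22). It turned the aspartame difference for Pecam1 (-0.081), Esam (-0.088), Tie1 (-0.027), Tek (-0.0032), Kdr (-0.18) and Eng (-0.049), the same values as on the 8 other arrays. On those 8 arrays ASP+TFA lay below TFA for Pecam1 (-0.15) and Tie1 (-0.073), and ASP+MSG+TFA for Kdr (-0.15). The brightest probe set turned ASP+TFA for Pecam1 (-0.051), Emcn (-0.072) and Kdr (-0.095), and aspartame for Pecam1 (-0.074) and Kdr (-0.0034).

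For MSG+TFA against TFA, leaving out single arrays turned 7 genes. The lowest and highest values were -0.025 and 0.44 for Pecam1, -0.10 and 0.45 for Esam, -0.0061 and 0.23 for Emcn, -0.20 and 0.60 for Tie1, -0.057 and 0.48 for Tek, -0.19 and 0.35 for Kdr, and -0.20 and 0.33 for Eng. The lowest came without TFA replicate 1 (Pecam1), MSG+TFA replicate 2 (Emcn) or MSG+TFA replicate 3 (the others). All other differences from TFA and for aspartame kept their direction under the alternatives run. Quantile normalization of the gene values moved the median of all genes by up to 0.12. The block within only the diets compared was added after the data were seen and called no endothelial gene. At 3 arrays per diet, most 1.5-fold differences were missed in the simulation, which held no raised arrays and few changed genes.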
